A study of Mus musculus with 12 samples.

Results

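The C/EBP and GFI1 genes encode transcription factors that steer myeloid progenitors. Of the 7 genes taken, Cebpa, Cebpb, Cebpd, Cebpe, Cebpg, Gfi1 and Gfi1b, the platform's gene symbols name 6, among 18193 genes named in all, with 10 probe sets of the 45101 on the array. Cebpa, Gfi1 and Gfi1b have 1 probe set each, Cebpb and Cebpd have 2 each and Cebpg has 3. Cebpe has none under its symbol and was not analysed here. The 10 probe sets were taken by symbol, whatever their values.

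The data are 12 Affymetrix arrays of mouse cells, each read from biotin-labelled total RNA, in a study titled for granulopoiesis driven by GM-CSF and its signal transducers STAT5A and STAT5B. The 4 groups hold 3 arrays each: control cells without and with treatment, and knockout cells without and with treatment. Control stands for mice that keep Stat5a and Stat5b, and knockout for mice in which both are missing from blood cells. The treatment is labelled as with or without GMP. On dates 1 and 3 the titles of treated and untreated arrays alike carry these letters, and a + or - marks the treatment. Whether GMP names an agent or the cells could not be settled here, so only the word treatment is used. No strain, age, dose, duration, deleting Cre line or animal number is given in the sources used here. The arrays lie on 3 dates, each with 1 array of every group, and the titles number no animals. The title of the knockout treated array of date 2 carries a tag that differs from the tag its date shares otherwise, and what the tag stands for is not given in the sources used here. Nothing states that the arrays of a group stand for different animals. The p-values therefore reflect the spread between these arrays alone, and that spread may be technical.

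Values are MAS5 intensities on a linear scale, and differences are on the scale of log2(intensity + 13), which understates changes of dim probe sets. Differences were fitted with limma with the date as a block, and are given with their standard error (SE). A probe set was called where the adjusted p, by Benjamini-Hochberg over all 21363 probe sets tested, was under 0.05. The 10 member probe sets all passed the filter for testing, an intensity above 70.5495 on at least 3 arrays, that level being the median over the whole table. Stat5a itself, at 1421469_a_at, read 962 ± 165 in control untreated cells and 60.6 ± 35.4 in knockout untreated cells (SD, n = 3). Stat5b, at 1422103_a_at, read 1120 ± 535 and 41.3 ± 15 in the same groups (SD, n = 3), and both genes were called lower without treatment (limma, adjusted p = 0.0324 for each). All 9 markers of granulocyte-macrophage progenitors were tested. Their summed intensity depended on the date. It never exceeded 90816 on dates 1 and 3, where the lowest sum was 78368. Every array of date 2 lay above that, the lowest at 130326 and the highest at 240766. The genes did not move together, as Mpo was highest on date 2 in every group, whereas Kit and Cd34 were lowest there. The 4 arrays of date 2 stood apart in the ratio of 3′ to 5′ control probe sets. For Actb it was 20.8 to 266 on them and 1.14 to 2.05 on the other 8. For Gapdh it was 28.2 to 80.7 against 1.56 to 3.9. Whether RNA integrity, labelling or another step differed on that date is not given in the sources used here. Results that rest on date 2 are therefore given without it as well. The number of arrays limits the precision: over all probe sets, the 95% confidence interval of a treatment difference within a genotype reached 0.684 to either side at the median, and that of the difference between genotypes in response 0.967.

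C/EBP proteins are basic leucine zipper factors that bind DNA as dimers. C/EBPα commits progenitors to the granulocyte and monocyte lineages and restrains their division, C/EBPβ takes over granulocyte production under stress and infection, C/EBPδ belongs to the acute inflammatory response, and C/EBPγ lacks a strong activation domain and works mainly as a dimer partner. GFI1 and GFI1B are closely related zinc finger repressors that recruit the demethylase LSD1 and its partner CoREST. GFI1 is needed for neutrophils and lymphocytes, GFI1B for red cells and platelets, and each is known to repress its own gene and the other's.

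In RefSeq's GRCm38.p6 the members lie on 5 autosomes. Cebpa (chr7:35119293-35121928) and Cebpg (chr7:35046422-35056566) are neighbours on chromosome 7, Cebpb (chr2:167688915-167690432) and Gfi1b (chr2:28609450-28621982) are far apart on chromosome 2, Cebpd is at chr16:15887286-15889545, Gfi1 at chr5:107716655-107725805 and Cebpe at chr14:54710363-54712174. RefSeq promoter windows of 300 bases, from 250 before to 50 after an annotated start, were matched for 5 of the 7 genes. They were searched on both strands for 4 motifs: TGACG, the core letters of cyclic AMP response elements bound by CREB and ATF proteins; AATC, the core of the GFI1 and GFI1B site; TTGCNNAA, a C/EBP site; and TTCNNNGAA, the palindrome bound by STAT proteins. In the windows printed no match of 1 motif overlaps a match of another, and a match describes the sequence only. The windows of Cebpb, Gfi1 and Gfi1b are printed because these genes had the largest treatment differences of the C/EBP and the GFI1 members, in both directions. Capitals mark TGACG or its reverse complement CGTCA in Cebpb, and AATC or its reverse complement GATT in Gfi1 and Gfi1b.
Cebpb, chr2:167688665-167688964, plus strand: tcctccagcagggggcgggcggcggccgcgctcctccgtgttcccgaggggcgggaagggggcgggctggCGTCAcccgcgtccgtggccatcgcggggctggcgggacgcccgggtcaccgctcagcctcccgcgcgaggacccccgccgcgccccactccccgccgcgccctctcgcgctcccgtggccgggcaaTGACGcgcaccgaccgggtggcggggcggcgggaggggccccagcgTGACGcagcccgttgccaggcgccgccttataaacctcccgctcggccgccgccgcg
Gfi1, chr5:107725756-107726055, minus strand: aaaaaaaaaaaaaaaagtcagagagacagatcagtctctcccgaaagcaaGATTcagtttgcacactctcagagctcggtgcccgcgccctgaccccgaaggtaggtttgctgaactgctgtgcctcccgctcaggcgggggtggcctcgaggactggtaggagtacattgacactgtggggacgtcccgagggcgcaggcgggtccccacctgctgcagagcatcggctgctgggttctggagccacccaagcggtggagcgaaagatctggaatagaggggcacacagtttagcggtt
Gfi1b, chr2:28621933-28622232, minus strand: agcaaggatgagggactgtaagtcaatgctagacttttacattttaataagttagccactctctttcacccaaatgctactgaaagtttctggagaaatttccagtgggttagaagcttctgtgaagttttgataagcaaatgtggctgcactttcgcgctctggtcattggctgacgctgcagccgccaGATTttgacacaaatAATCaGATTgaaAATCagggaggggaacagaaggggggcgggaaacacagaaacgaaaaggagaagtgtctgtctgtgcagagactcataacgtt

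The Cebpb window holds 3 TGACG motifs, starting at -180, -53 and -7 from the gene's start. At least 3 are found in 1.03% of the 32851 mouse promoter windows of the same length. The Gfi1b window holds 4 AATC cores at -60, -45, -40 and -33, a cluster of which at least 4 are found in 10.1% of windows. It also holds 1 STAT palindrome, as 8.3% of windows do, and 1 TGACG, as 20.8% do. The Gfi1 window holds 1 AATC, at -200, as 73.1% of windows do, and 1 C/EBP motif, as 10.8% do. A window at another annotated start of Gfi1 holds none of the 4 motifs, nor does that of Cebpa, and that of Cebpg holds 1 AATC alone.

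The first question was how these factors differed with treatment in cells with and without STAT5. Cebpb was called higher in both genotypes. Gfi1b was higher in all 6 date pairs but was called in knockout cells alone, a call kept in 2 of the 12 fits that left out 1 array. Its response was not called different between the genotypes, and no member was called lower within a single genotype. In control cells 1 of the 10 probe sets was called, where 4.7% of all probe sets were: it was higher, where 3.16% were, and 0 were lower, where 1.54% were. Here 6 of the 10 had an unadjusted limma p under 0.05, as did 4453 of all 21363 probe sets. In knockout cells 2 were called, where 8.66% of all probe sets were: both were higher, where 5.77% were, and 0 were lower, where 2.89% were. Again 6 had an unadjusted limma p under 0.05, as did 5322 of all 21363. The median difference of the member probe sets was 0.55 in control and 0.76 in knockout cells, beside -0.01 and 0.01 over all probe sets. Without date 2, limma called 4 member probe sets in control cells, where 6.64% of all probe sets were, and 6 in knockout cells, where 9.24% were. Counts of member probe sets here and below are not counts of genes, as Cebpb, Cebpd and Cebpg have several each.

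Averaging the treatment difference over both genotypes, a comparison added after the values were seen, uses all 6 date pairs of a treated and an untreated array. On this average limma called 7 member probe sets, where 19.9% of all probe sets were called. Of these 5 rose, where 11.4% of all probe sets did: Cebpb at 1418901_at, all 3 of Cebpg, and Gfi1b. Another 2 fell, Cebpa and Gfi1, where 8.55% of all did. The treated array was higher in all 6 pairs at 4 probe sets, 1 of Cebpb, 2 of Cebpg and that of Gfi1b, where 14.8% of all probe sets were. It was lower in all 6 pairs for Cebpa and Gfi1, where 14.6% of all were. With date 2 left out, 8 of the member probe sets were called on this average, where 24% of all probe sets were. Without the date block 2 were called, Cebpb and Cebpg at 1451639_at, where 5.78% of all were.

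**Figure D1:**
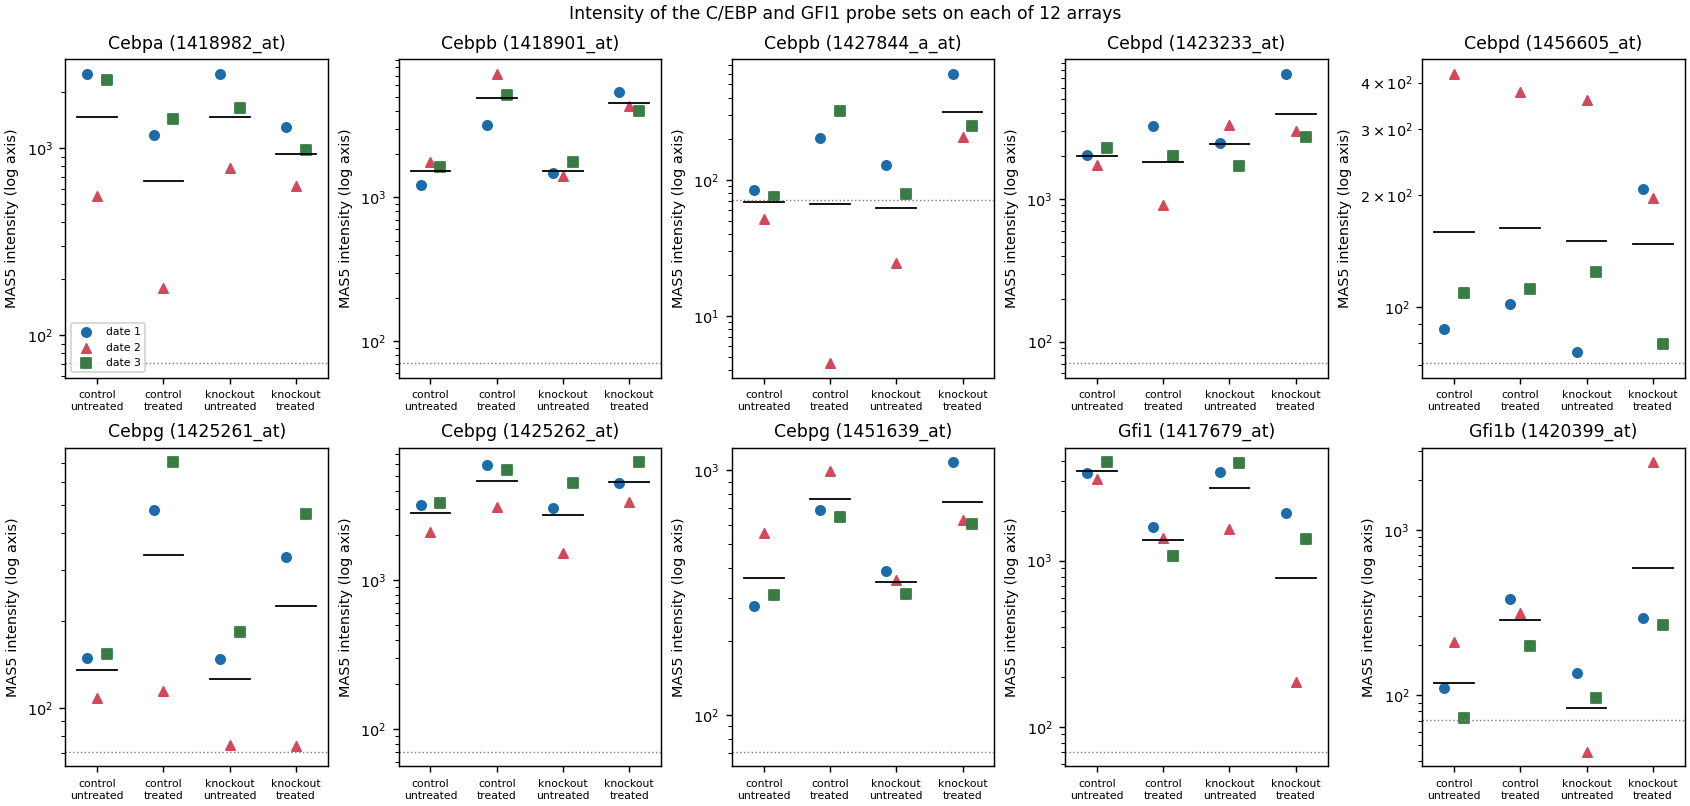
MAS5 intensity (log axis) of the 10 C/EBP and GFI1 probe sets on each of the 12 arrays; points are arrays, shaped and coloured by date, bars are group means taken on the log2 scale, and the dotted line is the median of all values, 70.5495. The treated arrays of Cebpb at 1418901_at lie above all untreated ones, and the date 2 knockout treated array of Gfi1b stands far above the rest.

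Cebpb was the member called in both genotypes. At 1418901_at control cells read 1221, 1759 and 1613 untreated and 3171, 7227 and 5103 treated on dates 1, 2 and 3. Knockout cells read 1469, 1397 and 1747 untreated and 5402, 4284 and 3999 treated. Every treated array lay above every untreated array, within and across genotypes. The rise was 1.68 ± 0.30 in control cells, 3.21-fold, and 1.56 ± 0.30 in knockout cells, 2.94-fold (SE; limma, adjusted p = 0.0128 for each). Averaged over both genotypes it was 1.62 ± 0.21 (SE; adjusted p = 8.77e-04), and this call stayed in all 12 fits that each left out 1 array. Within a genotype the call was more easily lost: the adjusted p in control cells was 0.051 without the date block, 0.0686 without the control treated array of date 3, 0.0672 and 0.0603 without the control untreated array of date 1 or of date 3. In knockout cells it was 0.0559 without the knockout untreated array of date 2.

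The other Cebpb probe set, 1427844_a_at, was near the filter. Control cells read 83.9, 51.3 and 74.4 untreated and 201, 4.5 and 317 treated, and knockout cells 128, 24.3 and 78.3 untreated and 601, 205 and 248 treated. The treated array was the higher in 5 of 6 pairs, and the exception was the control pair of date 2, where the treated array was the lowest of all 12. The difference was 0.39 ± 0.64 in control cells and 2.06 ± 0.64 in knockout cells (SE), not called in either (limma, adjusted p = 0.775 and 0.0732). Without date 2 these values were 1.53 and 1.82, and the latter was called (limma, adjusted p = 0.0724 and 0.0403). The probe sets of Cebpb thus gave the same direction, with a call in both genotypes at 1 of them.

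Cebpg rose at all 3 probe sets on the average over both genotypes. At 1451639_at control cells read 279, 556 and 310 untreated and 690, 998 and 642 treated, and knockout cells 388, 355 and 311 untreated and 1081, 627 and 603 treated. Treated and untreated arrays did not overlap within either genotype. The difference was 1.04 ± 0.31 in control and 1.06 ± 0.31 in knockout cells (SE; limma, adjusted p = 0.0838 and 0.0602), and averaged 1.05 ± 0.22 (SE; adjusted p = 0.00834), called in all 12 fits that left out 1 array.

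The brightest Cebpg readings came at 1425262_at. Control cells read 3218, 2106 and 3311 untreated and 5956, 3090 and 5523 treated, and knockout cells 3062, 1527 and 4461 untreated and 4477, 3375 and 6201 treated. All 6 pairs were higher with treatment, while the groups overlapped because date 2 was low in each. The averaged rise was 0.72 ± 0.17 (SE; limma, adjusted p = 0.0159), with 0.72 ± 0.24 in each genotype alone. The dimmer 1425261_at read 149, 108 and 154 untreated and 482, 114 and 705 treated in control cells. It read 148, 74.4 and 183 untreated and 331, 74 and 468 treated in knockout cells. On date 2 it barely moved in either genotype, and the averaged rise of 1.03 ± 0.27 (SE; limma, adjusted p = 0.0243) was called in 4 of the 12 fits that left out 1 array. Without date 2 its rise was 1.86 in control cells and 1.20 in knockout cells, called in both (limma, adjusted p = 0.00665 and 0.0236).

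Cebpa, the factor that commits progenitors to the myeloid lineages, fell on the average. Control cells read 2477, 555 and 2318 untreated and 1171, 178 and 1420 treated, and knockout cells 2499, 778 and 1631 untreated and 1296, 625.6 and 974 treated. Each treated array was below the untreated array of its date and genotype, and the groups overlapped because date 2 was low throughout. The differences were -1.12 ± 0.38 in control and -0.66 ± 0.38 in knockout cells (SE; limma, adjusted p = 0.126 and 0.317). The averaged difference was -0.89 ± 0.27 (SE; limma, adjusted p = 0.0425). It was lost without the date block, with a constant of 1 and with no filter (limma, adjusted p = 0.445, 0.056 and 0.0747), and kept in 2 of the 12 fits that left out 1 array, the fewest fits among the 7 averaged calls. Its values without date 2 were -0.89 and -0.84 (limma, adjusted p = 0.0944 and 0.092).

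Cebpd showed no common direction. At 1423233_at control cells read 2046, 1719 and 2281 untreated and 3250, 899 and 1996 treated, and knockout cells 2473, 3314 and 1709 untreated and 7548, 2990 and 2701 treated. The treated array was higher in 3 of 6 pairs, and the highest reading was the knockout treated array of date 1. The differences were -0.15 ± 0.43 in control and 0.70 ± 0.43 in knockout cells (SE; limma, adjusted p = 0.884 and 0.348). Its other probe set, 1456605_at, gave 0.02 and -0.03, each ± 0.40 (SE), and was highest on date 2 in every group but the knockout treated, where date 1 was slightly higher. The 95% confidence interval of the average over both genotypes ran from -0.40 to 0.95 at the first and from -0.63 to 0.62 at the second.

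Gfi1 fell with treatment. Control cells read 3374, 3106 and 3921 untreated and 1598, 1371 and 1067 treated, and knockout cells 3443, 1553 and 3881 untreated and 1935, 187 and 1354 treated. In control cells every treated array was below every untreated one. In knockout cells they overlapped through the untreated array of date 2, and the treated array of that date was by far the lowest of the 12. The differences were -1.37 ± 0.56 in control and -1.77 ± 0.56 in knockout cells (SE; limma, adjusted p = 0.195 and 0.0788), and averaged -1.57 ± 0.39 (SE; adjusted p = 0.0199), a call kept in 8 of the 12 fits that left out 1 array. Without date 2 both genotypes were called, at -1.47 and -1.17 (limma, adjusted p = 0.0282 and 0.0459). Leaving out only the knockout treated array of date 2 gave -1.37 in control cells (adjusted p = 0.0399) and -0.91 in knockout cells (adjusted p = 0.195).

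Gfi1b rose, at lower intensities. Control cells read 110, 209 and 72.4 untreated and 382, 312 and 197 treated, and knockout cells 135, 45.3 and 95.4 untreated and 292, 2564 and 265 treated. All 6 pairs were higher with treatment, and the groups did not overlap in knockout cells. On the log2 scale the date differences were 1.68, 0.55 and 1.30 in control cells and 1.04, 5.47 and 1.36 in knockout cells. The difference was 1.18 ± 0.68 in control cells (SE; limma, adjusted p = 0.367). In knockout cells it was 2.62 ± 0.68, 6.16-fold (SE; limma, adjusted p = 0.0421). The size in knockout cells rests on the date 2 array at 2564, the one whose title has the differing tag: without it the difference was 1.59 (limma, adjusted p = 0.1). Without any array of date 2 it was 1.20 in knockout cells and 1.49 in control cells, called in both (limma, adjusted p = 0.0305 and 0.0184). The knockout call was lost in 10 of the 12 fits that left out 1 array (adjusted p up to 0.142), and without the date block it was 0.126. Averaged over both genotypes the rise was 1.90 ± 0.48 (SE; limma, adjusted p = 0.0211), called in 9 of 12 such fits.

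On that same knockout treated array of date 2 the platelet marker Pf4 was also high. The summed intensity of the megakaryocyte list (4 of 6 tested) was 4785 there and 1014 to 2887 on the other arrays, carried by Pf4, which read 3900 there. Itga2b, Gp9 and Gp1bb, other markers of the list, read 595, 65.1 and 64.6 there, within the range of the other arrays. The dim Ppbp read 160.0 there, its highest value. The erythroid list (3 of 9 tested) summed to 391 there and to 181 to 451 over all arrays, and Alas2 was never above 70.5495. In every group Pf4 was highest on date 2. On that date it read 2264 in control untreated, 1914 in control treated and 1456 in knockout untreated cells. Gfi1b read 209, 312 and 45.3 on those arrays. The part of megakaryocyte or erythroid cells in the Gfi1b value was not tested. In bulk samples more cells of a type and more RNA per cell cannot be told apart.

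**Figure D2:**
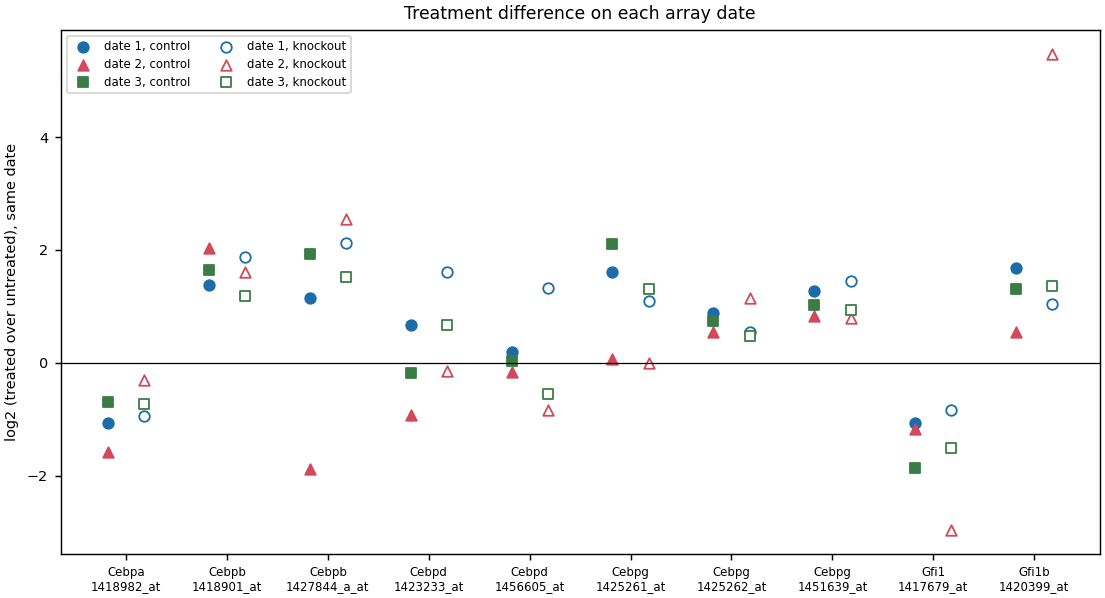
Treatment difference, log2 of treated over untreated on the scale of log2(intensity + 13), of each member probe set on each date (shape and colour), with control cells filled and knockout cells open. Cebpb at 1418901_at lies above the line and Gfi1 and Cebpa below it in all 6 pairs, and Gfi1b in knockout cells ranges from 1.04 to 5.47.

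Non-overlapping groups give another view of the same values. In control cells 2 member probe sets were higher with no overlap, Cebpb at 1418901_at and Cebpg at 1451639_at, where 8.36% of all probe sets were, and 1 was lower, Gfi1, where 6.37% were. In knockout cells 4 were higher with no overlap, both of Cebpb, Cebpg at 1451639_at and Gfi1b, where 11% of all were, and 0 lower, where 8.42% were. Marker lists moved with treatment as well. The monocyte or macrophage list (5 of 8 tested) was higher in all 6 pairs, from sums of 10936 to 29677 untreated to 13197 to 44584 treated in control cells. In knockout cells its sums were 11473 to 25929 untreated and 17033 to 35940 treated. These sums are mostly Csf1r, which read 13829 ± 10903 untreated and 20689 ± 17053 treated in control cells (SD, n = 3). The median difference of the 5 genes was -0.09 in control and 0.34 in knockout cells, with 3 and 2 of the 5 below 0. Ccr2 had lower means with treatment in both genotypes, and Cx3cr1 went from 745 ± 204 to 3428 ± 299 in knockout cells (SD, n = 3). The late neutrophil list (7 of 8 tested) was lower in 4 pairs and higher in 2. The summed progenitor list (9 of 9 tested) also fell in 4 pairs and rose in 2. Its median difference was -0.04 in control and -0.29 in knockout cells, with 7 of the 9 genes below 0 in each. The T or NK list (2 of 7 tested) was lower in all 6 pairs, carried by Nkg7, with Cd3d, Cd3g and Cd4 never above 70.5495. The stem cell list (4 of 5 tested) was higher in all 6 pairs, with sums of 328 to 546 untreated and 428 to 1273 treated. This was carried by Procr, which went from 91.2 ± 28.3 to 332 ± 268 in control and from 47.7 ± 21.4 to 430.2 ± 313 in knockout cells (SD, n = 3). The median differences of the 4 genes were -0.02 and -0.15. The lists of the B lineage and of stroma or endothelium were lower in all 6, with sums of at most 1159 and 504. The part of such cells in the member responses was not tested.

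**Figure D3:**
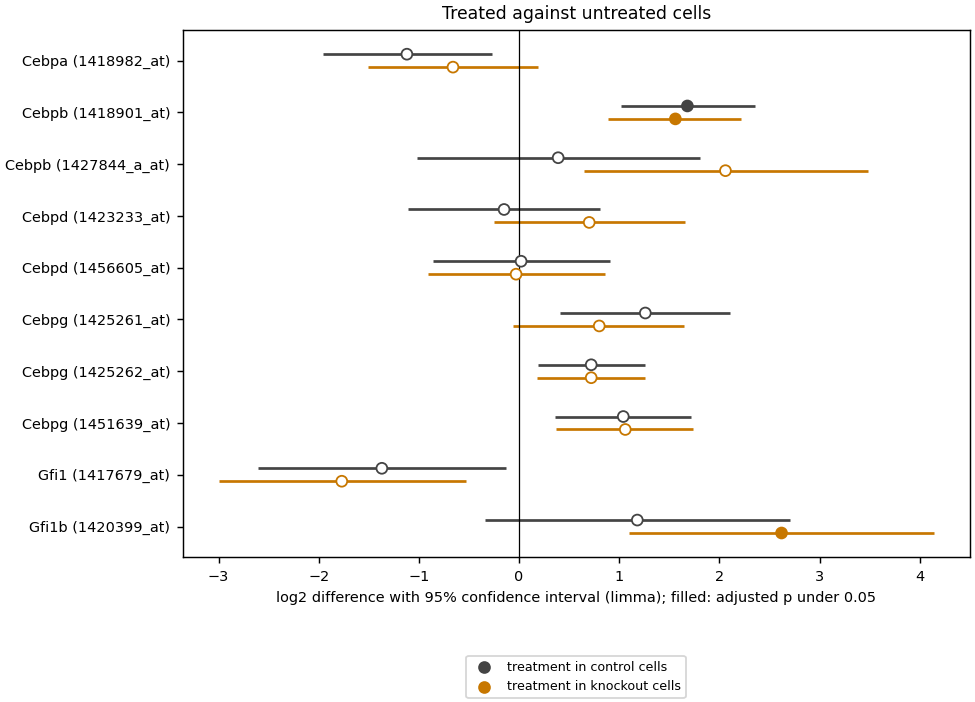
Treatment difference (log2) with its 95% confidence interval from limma for each member probe set in control and in knockout cells; filled points have an adjusted p under 0.05. Cebpb at 1418901_at is filled in both genotypes and Gfi1b in knockout cells, and the intervals of Gfi1b overlap between the genotypes.

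The next question was whether loss of STAT5 changed these factors, at rest or in their response. No member was called different by genotype. Between untreated knockout and control cells 0 of the 10 probe sets were called by limma and 0 had an unadjusted p under 0.05, where 0.00936% of all probe sets were called. Those called were 2 probe sets, 1 of Stat5a and 1 of Stat5b, while 520 of all 21363 had an unadjusted limma p under 0.05. Between treated cells 0 member probe sets were called, where 0.0609% of all were. An unadjusted limma p under 0.05 was found at 2 of them and at 1807 of all 21363. The difference between the treatment responses of the genotypes was called at 0 member probe sets and at 0% of all. For it 0 member probe sets and 549 of all 21363 had an unadjusted limma p under 0.05. In neither genotype comparison did the groups of any member separate, where 1.27% of all probe sets were higher and 2.5% lower without overlap in untreated cells, and 2.16% and 3.69% in treated cells. These comparisons share arrays with those of the treatment.

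The intervals say how large a genotype difference could have been missed. For Cebpb at 1418901_at the response differed by -0.13 ± 0.42 (SE), with a 95% confidence interval from -1.07 to 0.81, and its level by 0.02 in untreated and -0.11 in treated cells. At the other Cebpb probe set the interval was -0.33 to 3.67. For Cebpg at 1425262_at the response differed by -0.00 ± 0.34 (SE), between -0.77 and 0.76. For Cebpa the interval was -0.74 to 1.65, for Gfi1 -2.15 to 1.35 and for Gfi1b -0.71 to 3.60. The bounds for the GFI1 genes are thus wide, and responses that differ several-fold between the genotypes lie within them.

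The members with an unadjusted p under 0.05 in treated cells were 1 probe set each of Cebpb and Cebpd, both higher in knockout cells. Cebpd at 1423233_at was higher by 1.12 ± 0.43 (SE; limma, unadjusted p = 0.026, adjusted p = 0.584), on each of the 3 dates, with overlapping groups. Averaged over both treatments, a comparison also added after the values were seen, it was higher by 0.69 ± 0.30 (SE; limma, adjusted p = 0.564). The other Cebpd probe set gave -0.13 ± 0.40 in treated cells (SE; limma, adjusted p = 0.921). Cebpb at 1427844_a_at was higher by 1.61 ± 0.64 (SE; limma, unadjusted p = 0.0295, adjusted p = 0.584), where 1418901_at gave -0.11 ± 0.30 (SE). In both genes the other probe set thus lay within its SE of no difference. Averaged over both treatments 0 member probe sets were called, where 0.0234% of all were. An unadjusted limma p under 0.05 was found at 1 of them and at 1888 of all 21363.

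**Figure D4:**
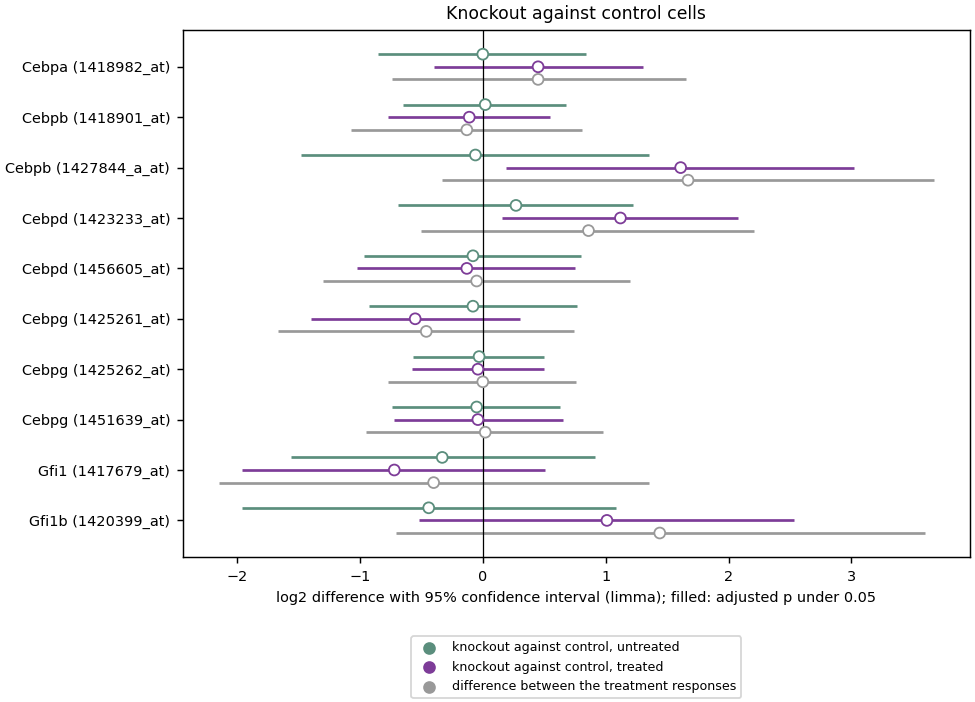
Knockout against control difference (log2) with its 95% confidence interval from limma for each member probe set, untreated, treated, and as the difference between the treatment responses. No point is filled, as no adjusted p was under 0.05, and the intervals of Gfi1 and Gfi1b are among the widest.

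By mean level over the 4 groups, both treated groups stood above both untreated ones for Cebpb and Gfi1b and below them for Gfi1 and Cebpa. Cebpb at 1418901_at read 5167 ± 2029 in control treated, 4562 ± 742 in knockout treated, 1537 ± 185 in knockout untreated and 1531 ± 278 in control untreated cells (SD, n = 3). Groups of like treatment did not differ beyond their spread. Gfi1 read 3467 ± 415 in control untreated, 2959 ± 1237 in knockout untreated, 1346 ± 266 in control treated and 1159 ± 890.0 in knockout treated cells (SD, n = 3). Gfi1b read 1040 ± 1320 in knockout treated, 297 ± 93.2 in control treated, 130.5 ± 70.5 in control untreated and 91.9 ± 45.1 in knockout untreated cells (SD, n = 3), where the first has an SD above its mean and neighbours lie within each other's spread or nearly so. Cebpa read 1783 ± 1067 in control untreated, 1636 ± 860.2 in knockout untreated, 965 ± 335 in knockout treated and 923 ± 657 in control treated cells (SD, n = 3), each within the spread of its neighbour. Cebpd at 1423233_at is the exception, at 4413 ± 2719 in knockout treated, 2499 ± 803 in knockout untreated, 2048 ± 1176 in control treated and 2015 ± 282 in control untreated cells (SD, n = 3), again each within the spread of the next.

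After the date means were subtracted, Gfi1 and Gfi1b ran opposite to each other over the 12 arrays, with a Pearson r of -0.835 (-0.912 over the 8 arrays without date 2). Cebpb and Cebpg ran together with r = 0.840, and Cebpg and Gfi1b with r = 0.848. Cebpa ran opposite to Cebpb with r = -0.811. Cebpd had no r above 0.226 with another member over the 12 arrays, nor below -0.397. Over the 8 arrays without date 2 this changed, to 0.755 with Cebpb, 0.564 with Gfi1b and -0.605 with Cebpa. Values of Cebpa changed as well. With Gfi1b its r was -0.354 over the 12 arrays and -0.962 without date 2. With Gfi1 it was 0.187 and 0.796, and with Cebpg -0.744 and -0.961. These are descriptions over arrays that share the treatment groups, with no test.

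The genes most like each member, by Pearson r over the 12 arrays after the date means were subtracted, are given as descriptions. For Cebpb they were Ehd1, Cd86 and Zswim6, with r = 0.979, 0.975 and 0.975, and Cd86, the costimulatory ligand of activated antigen-presenting cells, differed by 2.57 with treatment in control and 2.68 in knockout cells. For Gfi1 they were Cmc2, Ezh2 and Glod4, with r = 0.985, 0.984 and 0.984. Ezh2, the histone methyltransferase of Polycomb complexes, differed by -0.41 and -0.69. For Gfi1b they were Bach2, Rad52 and Slc35b3, with r = 0.982, 0.972 and 0.971, which were 0.941, 0.874 and 0.938 without date 2. Bach2, a repressor of the bZIP class, differed by 0.76 in control and 2.11 in knockout cells. Cebpa ran with 9430015G10Rik, Mindy4 and Fig4 (r = 0.986, 0.964 and 0.963). Cebpd ran with Dusp2, Zbtb38 and Tnfrsf1a (r = 0.956, 0.954 and 0.935), and Cebpg with Tsc22d1, Anapc16 and Mob1a (r = 0.972, 0.970 and 0.965).

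Genes that work with or under the C/EBP and GFI1 factors were counted from 7 lists, taking for each gene its tested probe set with the highest mean. Each count below stands beside 4.7% of all probe sets called in control cells (3.16% higher, 1.54% lower) and 8.66% in knockout cells (5.77% higher, 2.89% lower), and the lists were not tested against these shares. The shares cover all tested probe sets and not 1 per gene, so they are not exactly matched to the lists. Of all 21363, 4453 in control and 5322 in knockout cells had an unadjusted limma p under 0.05, and 549 for the difference between the responses. Of the other bZIP factors, which dimerise with C/EBP proteins or resemble them, 12 of 12 were tested. In control cells 2 rose and 2 fell, and in knockout cells 2 rose and 2 fell. Fos and Jun, the AP-1 partners, fell in both, with differences for Fos of -3.39 and -1.70 (limma, adjusted p = 0.00324 and 0.0428), and for Jun of -2.76 and -2.84 (adjusted p = 0.00822 and 0.00486). Fos went from 18111 ± 12366 to 1503 ± 304 in control cells (SD, n = 3). Atf5, a stress-response factor, rose by 1.54 and 1.58 (limma, adjusted p = 0.047 and 0.0294). Ddit3, which encodes the C/EBP inhibitor CHOP, rose by 1.26 in control cells (limma, adjusted p = 0.0307), and Atf3 rose by 4.18 in knockout cells (adjusted p = 0.0422). The Fos call in knockout cells was lost in 9, and that of Atf3 in 8, of the 12 fits that left out 1 array. The Atf5 and Ddit3 calls in control cells were lost in 8 and 7. The median difference of the list was 0.55 in control and 0.42 in knockout cells.

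Regulators of C/EBP proteins or of their transcription (10 of 12 tested) included 2 that rose and 1 that fell in each genotype. Trib3, a pseudokinase of the Tribbles family whose relatives direct C/EBPα to degradation, rose by 6.52 ± 0.42 in control and 5.73 ± 0.42 in knockout cells (SE; limma, adjusted p = 1.55e-04 and 2.10e-04). Its intensity went from 11.7 ± 6.28 to 2412 ± 1286 in control cells (SD, n = 3), from a mean below the filter's level. Id2, an inhibitor of basic helix-loop-helix factors, rose by 1.38 and 2.32 (limma, adjusted p = 0.0443 and 0.00353). Klf4, a monocyte factor, fell, with differences of -1.32 and -1.27 (limma, adjusted p = 0.0378 and 0.0306), with the calls lost without date 2 (adjusted p = 0.059 and 0.108). The list's median was 0.63 in control and 0.17 in knockout cells.

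Of genes known as repressed by GFI1 or GFI1B, 17 of 20 were tested. In control cells 5 rose and 1 fell, and in knockout cells 6 rose and 0 fell. Cdkn1a, the cell cycle inhibitor p21, rose by 3.51 ± 0.33 in control and 3.58 ± 0.33 in knockout cells (SE; limma, adjusted p = 5.12e-04 and 5.28e-04). Socs3, the feedback inhibitor of cytokine receptors, rose by 6.31 and 5.13 (limma, adjusted p = 0.00257 and 0.00489). Nab2, a corepressor of EGR factors, rose by 3.31 and 3.74 (limma, adjusted p = 0.00422 and 0.00159), and Csf1, the macrophage growth factor, by 1.60 and 2.11 (adjusted p = 0.0372 and 0.00848). Id2, also among the regulators above, is the remaining gene that rose in both. Egr2 rose by 1.66 in knockout cells (limma, adjusted p = 0.0171) and Irf8, a monocyte and dendritic factor, fell by 1.39 in control cells (adjusted p = 0.0371). The list's medians were 0.56 and 0.48. Of the corepressor partners of GFI1 and GFI1B, such as LSD1 (Kdm1a) and CoREST (Rcor1), 11 of 12 were tested and 0 were called by limma in either genotype, with 2 in control and 1 in knockout cells at an unadjusted p under 0.05.

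Granulocyte and myeloid genes known as C/EBP targets, which include the granule proteins, had call counts near the share over all probe sets. Of 21 tested of 22 listed, limma called 0 in control cells, where 4.7% of all were, with 3 at an unadjusted p under 0.05. It called 1 in knockout cells, where 8.66% of all were, again with 3 unadjusted. That one was Lyz2, the lysozyme of macrophages and neutrophils, which rose by 1.54 ± 0.33 in knockout cells (SE; limma, adjusted p = 0.0215), from 3335 ± 695 to 9721 ± 1935 (SD, n = 3). In control cells Lyz2 read 3428 ± 1326 and 3822 ± 1741 (SD, n = 3), and no gene of the list was called for a difference between the responses by limma, with 1 at an unadjusted p under 0.05. The list's medians were -0.25 and 0.16. For the difference between the responses the median was 0.57, with 16 of the 21 genes above 0 and 5 below. Over all probe sets that median was 0.03. The list's median without date 2 was not examined.

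Acute response genes known as targets of C/EBPβ or C/EBPδ (13 of 16 tested) had the highest list medians. In control cells 3 rose and 1 fell, and in knockout cells 6 rose and 1 fell, with medians of 1.77 and 2.68. Saa3, an acute phase protein, rose by 4.38 and 5.45 (limma, adjusted p = 0.00683 and 0.00157). Tnf rose by 3.46 and 4.44 (limma, adjusted p = 0.0116 and 0.00269), and Cd14, a coreceptor for bacterial lipopolysaccharide, by 2.63 and 3.47 (adjusted p = 0.0127 and 0.00267). The chemokine genes Cxcl2 and Ccl3 and the prostaglandin synthase gene Ptgs2 rose in knockout cells, by 2.85, 2.05 and 2.68 (limma, adjusted p = 0.00703, 0.0289 and 0.00646). Lbp fell, with differences of -1.06 and -1.08, and is named after its value was seen. No gene of this list was called by limma for a difference between the responses, with 1 at an unadjusted p under 0.05.

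Of 14 tested of 16 other myeloid transcription factors, 2 rose and 2 fell in control cells, and 2 rose and 0 fell in knockout cells. Maf, a macrophage factor, rose in both (limma, adjusted p = 0.00422 and 0.00198), by 3.68 in control cells and from 24.1 ± 14.6 to 611 ± 337 in knockout cells (SD, n = 3). Irf4 rose by 2.68 and 2.12 (limma, adjusted p = 0.0105 and 0.0197). Zbtb16 and Irf8 fell in control cells, with differences of -1.25 and -1.39 (limma, adjusted p = 0.0415 and 0.0371), calls that were lost in 8 and 7 of the 12 fits that left out 1 array. The medians were -0.19 and 0.16. For each of the 7 lists limma called 0 genes in the knockout against control comparisons and in the difference between the responses, with at most 5 genes of a list at an unadjusted p under 0.05. That count was reached by the genes known as repressed by GFI1 or GFI1B, of which 17 were tested. It was reached between treated genotypes and in the average over both treatments. Over all 21363 probe sets 1807 and 1888 had such a p there, and 520 to 1888 depending on the comparison.

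The date block decided many of these calls. Of the named list genes other than Lbp, those still called by limma without it in control cells were Fos, Trib3, Socs3, Cdkn1a, Saa3, Maf and Irf4, and the others had adjusted p from 0.0534 (Nab2) to 0.621 (Zbtb16). In knockout cells those still called were Trib3, Socs3, Nab2, Cdkn1a, Csf1, Saa3, Tnf, Cd14, Ptgs2 and Maf, and the others had adjusted p from 0.059 (Id2) to 0.447 (Klf4). Without date 2 the control calls of Id2 and Irf8 were lost (limma, adjusted p = 0.0715 and 0.109). Leaving out 1 array ended the Lyz2 call in 6 of 12 fits, the Ccl3 call in 6, the Egr2 call in 3, and the control calls of Id2, Csf1, Tnf and Cd14 in 8, 6, 3 and 4. It ended the Klf4 calls in 8 and 6, the Irf4 calls in 2 and 4, and the Atf5 call of knockout cells in 4. Trib3, Socs3, Cdkn1a, Nab2, Saa3, Jun and Maf kept their calls in both genotypes in all 12.

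**Figure D5:**
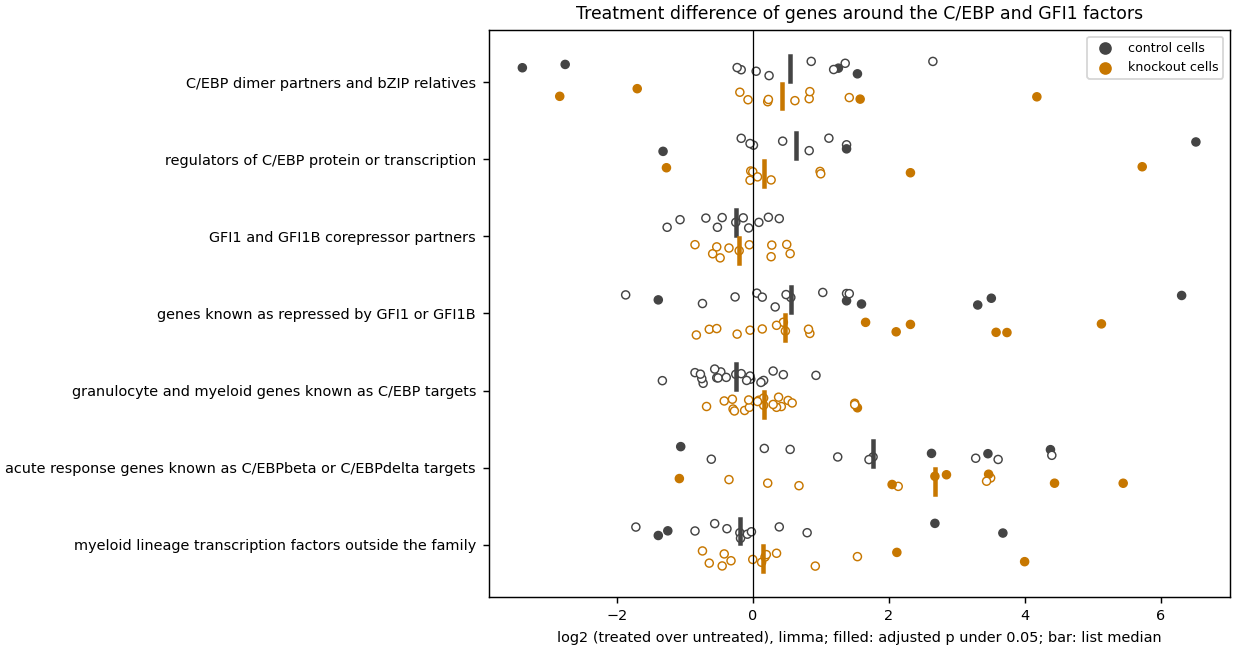
Treatment difference (log2, limma) of each tested gene of the 7 lists in control and in knockout cells; filled points have an adjusted p under 0.05 and vertical bars are list medians. The acute response genes have the highest medians, 1.77 and 2.68, and the granulocyte C/EBP targets lie around 0.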

How the data were processed

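The authors deposited 1 table of intensity values on a linear scale for 45101 probe sets and 12 arrays. Per the submitters' processing notes they are MAS5 signals; the version is not given in the sources used here. The 2% trimmed mean of each array is 500.003 to 500.004, so the arrays were scaled to a common level before deposit. Probe sets were named by the platform annotation: 34945 have 1 symbol and were used, 932 have several, 9160 have none and 64 are control sets. Intensities were turned to log2 after adding 13, the rounded 20th percentile of all values. The 21363 probe sets (11815 genes) brighter than 70.5495, the median over the table, on at least 3 arrays were tested in limma 3.58.1 (R 4.3.3) with 4 groups and the array date as a fixed block, leaving 6 residual degrees of freedom. P-values were adjusted by Benjamini-Hochberg with a threshold of 0.05, over 5 comparisons each on its own, plus 2 averaged ones added after the values were seen.

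The date comes from the array titles, and pairing was checked: deviations from group means correlated at r = 0.367 to 0.75 in 18 pairs of arrays of the same date, against -0.68 to 0.435 in 36 pairs of different dates and groups. The fit was also run on simulated data, with independent noise and a date shift shared by all probe sets. That run cannot show how the fit behaves where the date effect differs between probe sets. Members and gene lists were chosen with earlier results of these data known, so counts in them are descriptions. Named genes are all member probe sets, Stat5a and Stat5b, up to 6 called genes of each list by size, and the 3 genes most like each member. Alternatives changed the constant, the filter, the normalization, the moderation, the block, the arrays and the probe sets per gene. Promoter windows are RefSeq's, build GRCm38.p6, with no entry matched for Cebpd and Cebpe. Plots used Python 3.11.15 and matplotlib 3.10.9.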

Additional observations from a re-analysis of the deposited data

How the results depend on the processing

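The 3 arrays of a group limit the precision of every value. The member probe sets called for treatment in control cells numbered 1. They numbered 0 with no replicate block or with only the 2 groups compared, 4 without date 2, and 0 to 2 with 1 array left out. In knockout cells they numbered 2. They numbered 1 with a constant of 1, with no filter, with no replicate block or with quantile normalization, 4 with an intensity trend, 5 with a constant of 50, 6 without date 2, and 0 to 3 with 1 array left out. Averaged over both genotypes they numbered 7, and 2 with no replicate block, 6 with a constant of 1 or with no filter, which each lost Cebpa, and 3 to 7 with 1 array left out. For the difference between the responses and the knockout against control comparisons limma called 0 members in each alternative run. No value that was called, in the main setting or an alternative, changed direction.

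Over all probe sets the count for treatment in control cells was 1004, and 172 with no replicate block, 215 with only the 2 groups compared, 548 with no filter, and 264 to 1219 with 1 array left out. In knockout cells it was 1849, and 343, 949 and 1045 under those settings, and 572 to 2550 with 1 array left out. The averaged count was 4258, and 1234 with no replicate block and 2818 with 1 probe set per gene, which tests fewer probe sets. Between treated genotypes it was 13, and 0 with a constant of 1 or only the 2 groups, 28 with a constant of 50, 21 with an intensity trend, 7 with no filter and 2 with no replicate block, and 0 to 11 with 1 array left out. Untreated it was 2, and 0 with a constant of 1, no filter or only the 2 groups, 1 with no replicate block, and 0 to 2 with 1 array left out. Averaged over both treatments it was 5, and 3 with 1 probe set per gene or the filter on 6 arrays, 2 with an intensity trend, no filter, no replicate block, quantile normalization or without date 2, and 2 to 5 with 1 array left out. The difference between the responses gave 0, and 2 with a constant of 50, and 0 to 1 with 1 array left out. The cause was not tested, except where fewer arrays or probe sets entered.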
